A study of Homo sapiens with 18 samples.

Results

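The 8 genes described here encode enzymes that switch steroids between active and inactive forms or release them from their sulfates. These genes were picked by symbol, with earlier results of these data known. They were the hydroxysteroid dehydrogenase genes HSD17B4, HSD17B6, HSD17B10, HSD17B11 and HSD17B12, the steroid reductase genes SRD5A1 and SRD5A3, and the steroid sulfatase gene STS. All 8 were present among the 20145 genes of the deposited table, and all 8 passed the filter on low counts, which left 15422 genes to test. RNA came from LNCaP, an established human prostate adenocarcinoma line that responds to androgens, kept in medium with fetal bovine serum. The cells were treated for 72 h with 1 of 5 compounds, at doses of 1 µM for 2-77, 2 µM for BD98, 0.2 µM for ACBI, and 10 µM for both P-16 and ENZA, or with the vehicle DMSO, and each of the 6 conditions has 3 libraries. The series title concerns inhibitors of the BRD7 bromodomain, and the labels of the samples do not say what 2-77, ACBI, BD98 and P-16 bind. The treatment text spells P-16 as PB16. ENZA is a common short form of enzalutamide, an antiandrogen. The conditions share 1 cell line and 1 time point, and doses differ between the compounds except for P-16 and ENZA. No label says that the 3 libraries of a condition came from separate cultures, so p-values here measure only the spread between these libraries, which may be technical.

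Steroid 5α-reductases turn testosterone into dihydrotestosterone, the stronger androgen. Hydroxysteroid dehydrogenases exchange a hydroxyl for a ketone group on the steroid, or the reverse, and thereby set whether an androgen or estrogen is active. Steroid sulfatase frees steroids such as dehydroepiandrosterone from the sulfated form in which they circulate, and prostate cells can use these precursors to make androgens locally. Several of the 8 enzymes are at least as well known for other work: HSD17B4 for the breakdown of fatty acids in peroxisomes, HSD17B10 for mitochondrial tRNA processing and isoleucine breakdown, HSD17B12 for building very long fatty acids, and SRD5A3 for making dolichol, the lipid carrier of protein glycosylation.

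Library totals ran from 16835113 to 36975052 counts, and no pair of libraries agreed within sampling noise (the lowest chi-square per degree of freedom between replicates was 2.14). ACBI replicate 3 stood apart: rRNA genes took 8.6% of its counts, against 0.639% to 2.09% in the other libraries. The tests of the 8 genes that involve ACBI, and the ACBI counts and fold changes of the pathway lists and of the list genes named, are therefore also given without it. The first principal component, with 58.4% of the variance, set the ACBI libraries apart. All 7 luminal prostate markers, KRT8, KRT18, KLK3, HOXB13 and FOLH1 among them, were detected in every condition, at summed levels of 4010 to 4210 CPM (read counts scaled to a common library size) in ACBI libraries and 8530 to 8590 CPM in DMSO libraries. The basal marker KRT14 stayed at or under 2.1 CPM, and the leukocyte marker PTPRC was at 0 counts in 5 of the 6 conditions. The 3 immune markers summed to between 4.17 CPM (in an ENZA library) and 7.13 CPM (in an ACBI library), nearly all of it CD68. The 3 neuroendocrine markers summed to 14.1 to 15.7 CPM in ACBI libraries and 2.59 to 3.14 CPM in DMSO libraries, nearly all of it SYP, while CHGA had at most 4 counts in any library. The endothelial markers summed to 56.1 to 57.4 CPM in BD98 libraries and 20.9 to 23 CPM in DMSO libraries, nearly all of it VWF, while PECAM1 had at most 3 counts. The part of SYP and VWF in the ACBI and BD98 results below was not tested.

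Promoter sequences are shown for 3 members: HSD17B4 and STS, which were the members higher under BD98, and SRD5A1, which was lower under the same compound. Each is the 250 bases before the gene start of the deposited table, taken from RefSeq on GRCh38.p14 and written on the gene's own strand. RefSeq windows matched 6 of the 8 members by symbol and start, and HSD17B6 and HSD17B12 had none. The windows lie at chr5:119452247-119452496 (HSD17B4, plus strand), chr5:6633190-6633439 (SRD5A1, plus strand) and chrX:7147040-7147289 (STS, plus strand). Capitals mark matches to the motifs that were searched on both strands: the androgen response element (AGAACA, any 3 bases, TGTTCT), its half-site AGAACA, the CCAAT box CCAAT, the GC box GGGCGG and the E-box CACGTG. A full element would also count as half-sites, and the other motifs share no letters in these 3 windows.
HSD17B4: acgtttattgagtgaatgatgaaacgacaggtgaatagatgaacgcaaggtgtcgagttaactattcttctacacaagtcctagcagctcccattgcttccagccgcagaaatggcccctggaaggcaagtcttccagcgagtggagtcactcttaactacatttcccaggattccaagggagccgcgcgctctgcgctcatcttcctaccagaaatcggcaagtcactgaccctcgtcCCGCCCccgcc
SRD5A1: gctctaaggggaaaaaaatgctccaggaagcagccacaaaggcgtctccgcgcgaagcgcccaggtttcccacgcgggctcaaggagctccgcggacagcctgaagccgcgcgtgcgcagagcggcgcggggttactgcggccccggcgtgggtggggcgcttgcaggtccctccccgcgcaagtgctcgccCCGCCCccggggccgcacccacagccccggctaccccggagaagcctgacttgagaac
STS: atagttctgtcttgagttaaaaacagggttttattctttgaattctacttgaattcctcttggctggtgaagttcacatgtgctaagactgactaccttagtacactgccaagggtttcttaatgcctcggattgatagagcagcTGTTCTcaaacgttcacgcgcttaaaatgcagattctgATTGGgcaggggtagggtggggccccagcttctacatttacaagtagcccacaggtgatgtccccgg

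The HSD17B4 window held 1 GC box, read from the opposite strand as CCGCCC at bases -11 to -6 before the start, and the SRD5A1 window held 1 at bases -58 to -53. The STS window held a half-site of the androgen response element, read as TGTTCT at bases -105 to -100, and a CCAAT box, read as ATTGG at bases -67 to -63. Among 35097 RefSeq windows of the same 250 bases, 42.6% held a GC box, 32.0% a CCAAT box, 12.4% an androgen half-site and 6.34% an E-box, while the full androgen response element was found in 0.00285%. The STS window had the lowest GC content of the 6 windows, 45.6%, and the SRD5A1 window the highest, 70.8%, beside a median of 58.0% over all windows. These matches describe letters only, and the STS window belongs to 1 of 5 STS starts in the RefSeq table: the deposited gene starts at base 7147290, and the GENCODE v29 gene at base 7219456.

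Set against DMSO, the 8 genes did not move as a block. Under 2-77, 3 of 8 passed an adjusted p of 0.05 in edgeR's quasi-likelihood test with Benjamini-Hochberg adjustment, used throughout (1 higher and 2 lower), beside 40.7% of all genes tested (20.5% higher and 20.2% lower). Under ACBI, 4 of 8 passed (1 higher and 3 lower), beside 72% of all genes (35.4% and 36.6%). Without ACBI replicate 3 the count was again 4, beside 70.1%, with HSD17B12 in the place of HSD17B10. Under BD98, 4 of 8 passed (2 higher and 2 lower), beside 49% (24.5% and 24.5%). Under P-16, 3 of 8 passed, all lower, beside 24% (12.4% and 11.6%), and under ENZA 1 of 8 passed, lower, beside 36.3% (18.2% and 18.1%).

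The size of the members' changes was read against all genes in the same way. Their median absolute log2 fold change under ACBI was 0.17, beside 0.44 over all genes (0.21 beside 0.45 without ACBI replicate 3). Under ENZA it was 0.08, beside 0.17. Under 2-77 (0.16 beside 0.19), BD98 (0.27 beside 0.22) and P-16 (0.13 beside 0.13) the members lay close to all genes. With the 6 conditions ordered by mean CPM for each gene, 5 of the 40 pairs of neighbouring conditions passed the test and 35 did not. The order came from the same CPM values, so neighbours lie nearest to each other and a low count is favoured. No like count over all genes was made, and the shares that follow are for fixed pairs of compounds. Over all genes the shares that passed between compounds were 70.2% for 2-77 against ACBI, 42% for 2-77 against BD98, 22.4% for 2-77 against P-16, 5.54% for 2-77 against ENZA, 69.6% for ACBI against BD98, 71.5% for ACBI against P-16, 70.1% for ACBI against ENZA, 43.6% for BD98 against P-16 and 42.5% for BD98 against ENZA. In bulk RNA, fewer cells that express a gene and less RNA per cell cannot be told apart.

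**Figure D1:**
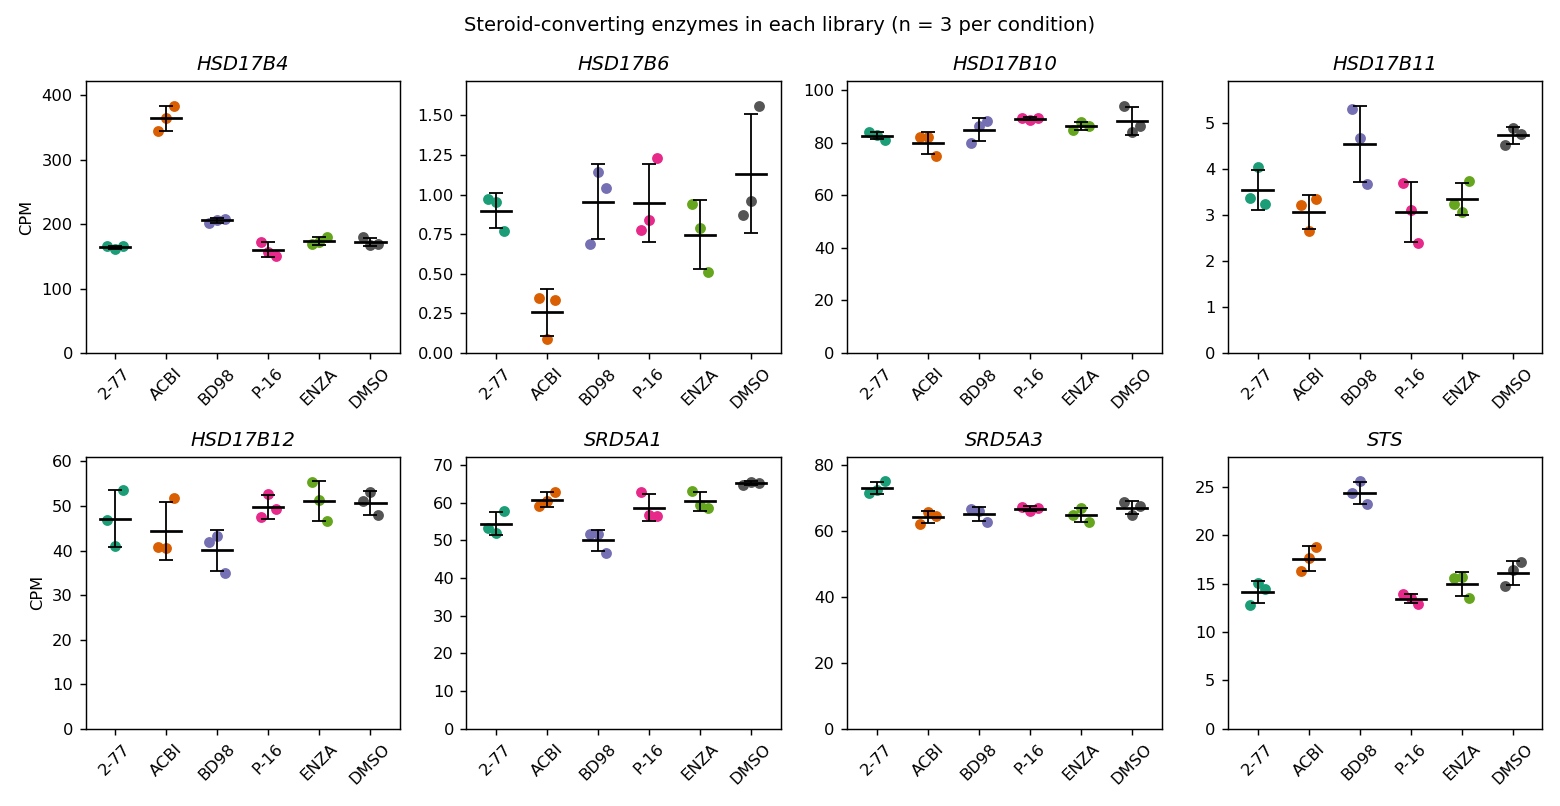
CPM of each gene (y axis, from 0) in the 3 libraries of each condition (x axis); points are libraries, and the bar and whiskers are the mean and SD. HSD17B4 is highest in the ACBI libraries (345 to 383 CPM), STS in the BD98 libraries (23.3 to 25.6 CPM), and HSD17B6 is lowest in the ACBI libraries (0.087 to 0.35 CPM).

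HSD17B4 gave the clearest response of the 8 genes: it was about doubled under ACBI and slightly raised under BD98. The gene lies at chr5:119452497-119542332 on the plus strand (hg38) and encodes a peroxisomal enzyme that oxidises estradiol and androstenediol and also carries the hydratase and dehydrogenase steps of peroxisomal fatty acid breakdown. It stood at 166, 162 and 165 CPM in the 2-77 libraries, at 345, 364 and 383 CPM in the ACBI libraries and at 202, 207 and 209 CPM in the BD98 libraries. It stood at 173, 157 and 151 CPM in the P-16 libraries, 169, 172 and 180.3 CPM in the ENZA libraries, and 180.0, 168 and 169 CPM in the DMSO libraries. Every ACBI library was above every other library, the BD98 libraries came next, and the P-16, ENZA and DMSO libraries overlapped. The 2-77 libraries lay just below those of DMSO.

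The level under ACBI was 2.12-fold that under DMSO (log2 fold change 1.08 ± 0.044, SE; adjusted p = 3.39e-19), a larger change than that of 80.3% of genes. Without ACBI replicate 3 it was 1.05 (adjusted p = 9.55e-22; range over all 25 alternatives 1.16e-108 to 1.89e-10). Under BD98 it was 1.20-fold (0.26 ± 0.044, adjusted p = 1.94e-05). ACBI exceeded BD98 by 0.82 ± 0.044 (adjusted p = 2.2e-16; 0.80, adjusted p = 2e-18 without ACBI replicate 3) and BD98 exceeded ENZA by 0.24 ± 0.044 (adjusted p = 4.92e-05), at unequal doses. The remaining neighbours in the order ENZA, DMSO, 2-77, P-16 did not pass the test. Relative to DMSO the log2 fold change was -0.07 under 2-77 (95% interval -0.16 to 0.02), -0.10 under P-16 (-0.20 to -0.01, adjusted p = 0.0949) and 0.02 under ENZA (-0.08 to 0.11). Leaving out P-16 replicate 1 alone carried the P-16 value past the threshold (-0.16, adjusted p = 0.0148; range over alternatives 0.0148 to 0.438).

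Other genes of peroxisomal fatty acid breakdown, from a list of 18 tested genes, were mostly higher under ACBI and BD98, as HSD17B4 was. Under ACBI, 13 were higher and 4 lower (median log2 fold change 0.52, beside -0.01 over all genes), and the same counts were found without ACBI replicate 3. SCP2, a sterol carrier and thiolase, stood at 173 ± 11 CPM in ACBI libraries and 102 ± 0.64 CPM in DMSO libraries (SD, n = 3 each; log2 fold change 0.76, or 0.72 without ACBI replicate 3). Genes that fell, named after their values were seen, included the branched-chain oxidase ACOX2 (-1.87), the lyase HACL1 (-0.50) and the import receptor PEX5 (-0.19). Without ACBI replicate 3 they were -1.84, -0.46 and -0.15, in that order, and all passed. ACOX2 was higher under BD98 (0.53).

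Under BD98, 13 of the 18 peroxisomal genes were higher and 3 lower (median 0.25), and HACL1 was among the higher ones (0.67 ± 0.065). The list did not follow HSD17B4 under every compound: under ENZA, where HSD17B4 did not pass, 9 of 18 were higher and none passed as lower, among them HACL1 (0.61 ± 0.065) and PHYH (0.58 ± 0.048), which removes a carbon from phytanic acid. PHYH was higher than in DMSO under all 5 compounds, by 0.42 under 2-77, 0.70 under ACBI (0.68 without replicate 3), 0.45 under BD98, 0.27 under P-16 and 0.58 under ENZA. Under 2-77, 7 were higher and 1 lower, and under P-16 5 passed, all higher, led under both by ACOX3, an oxidase of branched-chain acids (0.43 and 0.38). The shares called were 44.4% (2-77), 94.4% (ACBI), 88.9% (BD98), 27.8% (P-16) and 50% (ENZA). Over all genes they were 40.7%, 72%, 49%, 24% and 36.3%, in that order.

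**Figure D2:**
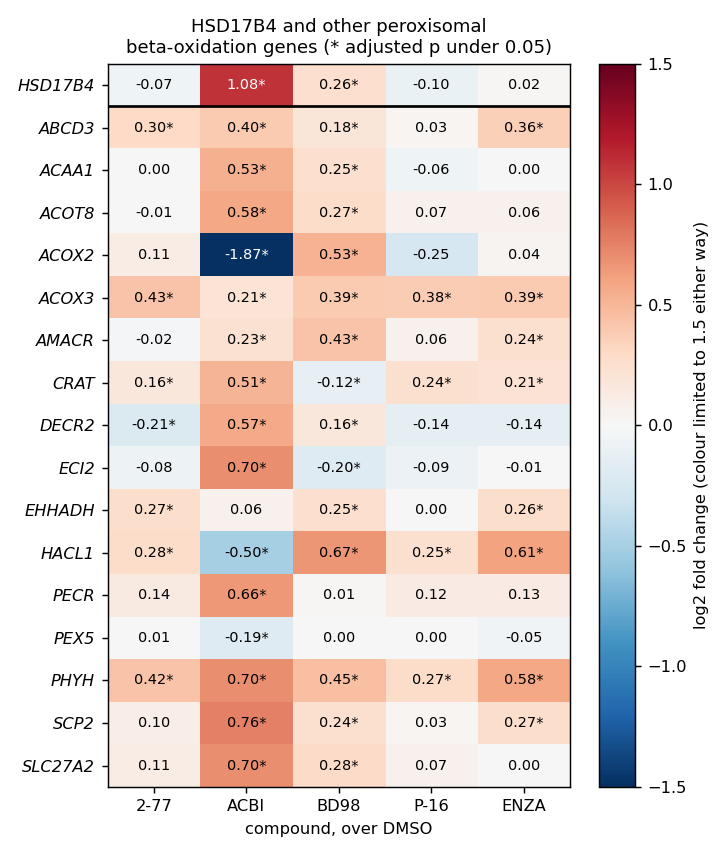
Log2 fold change over DMSO (colour and printed value) of HSD17B4 and 16 of the 18 tested genes of the peroxisomal list (rows) under each compound (columns); an asterisk marks an adjusted p under 0.05. The ACBI column is mostly positive with ACOX2 at -1.87 as the largest fall, and HACL1 is negative under ACBI and positive under the other 4 compounds.

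Among 11402 other genes with a mean of at least 4 CPM, those whose 5 fold changes over DMSO lay nearest to HSD17B4 were CLCN4, a chloride and proton exchanger of endosomes, at a root mean square log2 difference of 0.0441, and ANTXR2, a cell surface receptor for matrix proteins, at 0.0573. CLCN4 changed by 1.11 under ACBI and 0.24 under BD98 on the log2 scale, and ANTXR2 by 1.08 and 0.24. This likeness covers 5 comparisons that share their DMSO libraries.

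HSD17B6 was the least abundant member and the one with the largest fold change, a fall under ACBI. Its enzyme oxidises 3α-androstanediol back to dihydrotestosterone, and the gene lies at chr12:56763324-56787790 (plus strand). It was counted 9, 2 and 8 times in the ACBI libraries, against 15, 19 and 35 times in the DMSO libraries, that is 0.35, 0.087 and 0.33 CPM against 0.87, 0.96 and 1.56 CPM. The ACBI libraries lay below every library of the other conditions, where it was counted 11 to 35 times.

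The log2 fold change of HSD17B6 under ACBI was -2.12 ± 0.41 (adjusted p = 3.66e-05), and without ACBI replicate 3 it was -2.32 (adjusted p = 7.57e-05; range over all 25 alternatives 1.49e-05 to 0.00111). A count of 3 equals 0.0814 to 0.175 CPM, depending on the library. ACBI replicate 2, with 2 counts (0.087 CPM), lay under its own level of 0.13 CPM. ENZA, the next condition in the order, exceeded ACBI by 1.51 ± 0.42 (adjusted p = 0.00234, unequal doses; 1.71, adjusted p = 0.00329 without ACBI replicate 3), and no other neighbours passed the test. Elsewhere its log2 fold change was -0.35 under 2-77 (95% interval -1.02 to 0.33), -0.27 under BD98 (-0.96 to 0.41), -0.30 under P-16 (-0.996 to 0.392) and -0.61 under ENZA (-1.31 to 0.08), none past the threshold. The nearest profiles among 11403 genes were those of ZWILCH, a kinetochore protein (root mean square log2 difference 0.115), and PRIM1, a subunit of DNA primase (0.121), which under ACBI changed by -2.24 and -1.97. Both distances are smaller than the standard errors of the HSD17B6 values over DMSO, 0.33 to 0.41. Which genes lie nearest to HSD17B6 is therefore not settled by these libraries.

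HSD17B11 was lower under 4 of the 5 compounds, all except BD98. It encodes a dehydrogenase of lipid droplets that acts on 3α-androstanediol, from chr4:87336516-87391188 (minus strand), and was counted 43 to 124 times per library. It stood at 3.37, 4.06 and 3.25 CPM in the 2-77 libraries, 3.22, 2.65 and 3.36 CPM in the ACBI libraries, and 5.32, 4.67 and 3.68 CPM in the BD98 libraries. It stood at 3.70, 3.11 and 2.40 CPM in the P-16 libraries, 3.24, 3.07 and 3.75 CPM in the ENZA libraries, and 4.54, 4.91 and 4.77 CPM in the DMSO libraries. The 2-77, ACBI, P-16 and ENZA libraries all lay below the DMSO libraries, and the BD98 libraries spread around them.

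The fall of HSD17B11 was -0.62 ± 0.17 under ACBI (adjusted p = 0.00199) and -0.68 without ACBI replicate 3 (adjusted p = 0.00216; range over alternatives 0.00104 to 0.0149). It was -0.61 ± 0.17 under P-16 (adjusted p = 0.0102), -0.51 ± 0.17 under ENZA (adjusted p = 0.0185) and -0.42 ± 0.17 under 2-77 (adjusted p = 0.0472). The BD98 value was -0.07, with a 95% interval of -0.41 to 0.27. No neighbours in the order DMSO, BD98, 2-77, ENZA, ACBI, P-16 passed the test.

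Apart from ACBI, these falls of HSD17B11 did not keep their call in every alternative, while their direction held. The P-16 fall was lost without P-16 replicate 3 (-0.47, adjusted p = 0.0718; range over alternatives 0.00527 to 0.0718). The ENZA fall was lost without ENZA replicate 2 (-0.44, adjusted p = 0.0907) and without DMSO replicate 2 (-0.48, adjusted p = 0.0548; range 0.0069 to 0.0907). The 2-77 fall was lost in 12 of 25 alternatives. They were DESeq2, library totals, no filter, and leaving out 2-77 replicate 1 or 3, BD98 replicate 2, P-16 replicate 2, ENZA replicate 1 or 2, or any DMSO library, with log2 fold changes of -0.45 to -0.36 and an adjusted p of up to 0.134 (lowest over alternatives 0.0308).

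HSD17B10 and HSD17B12 each passed under 1 compound. HSD17B10 encodes a mitochondrial dehydrogenase that oxidises steroids and 2-methyl-3-hydroxybutyryl-CoA and is a subunit of mitochondrial RNase P; it lies at chrX:53431258-53434376 (minus strand). It stood at 82.4, 82.2 and 75.1 CPM in the ACBI libraries, against 94.1, 84.2 and 86.5 CPM in the DMSO libraries. The groups did not overlap, although their nearest libraries lay close. The 2-77 libraries ran from 81.2 to 84.1 CPM, the BD98 libraries from 80.1 to 88.3 CPM, the P-16 libraries from 88.6 to 89.5 CPM and the ENZA libraries from 84.9 to 88.1 CPM.

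The log2 fold change of HSD17B10 under ACBI was -0.14 ± 0.048 (adjusted p = 0.00961). It was lost without ACBI replicate 3, the library with the raised rRNA share (-0.09, adjusted p = 0.096), and without DMSO replicate 1 (-0.10, adjusted p = 0.1; range over alternatives 0.00495 to 0.1). No other compound passed, and the highest condition mean, 89.2 CPM under P-16, was 1.12 times the lowest, 79.9 CPM under ACBI. On a list of 12 genes of mitochondrial RNase P and isoleucine breakdown, 2 were higher and 8 lower under ACBI, and 1 higher and 7 lower without ACBI replicate 3. Under BD98, 3 were higher and 8 lower, under 2-77 2 and 3, under P-16 1 and 1, and under ENZA 2 were higher and none passed as lower. The shares called were 41.7% (2-77), 83.3% (ACBI), 91.7% (BD98), 16.7% (P-16) and 16.7% (ENZA). Over all genes they were 40.7%, 72%, 49%, 24% and 36.3%, in that order. TRMT10C, the methyltransferase subunit of RNase P, fell by 0.51 on the log2 scale under ACBI (by 0.49 without replicate 3), and ACADSB, the dehydrogenase of the isoleucine pathway, fell by 0.81 under BD98. DBT, a subunit of the branched-chain ketoacid complex, fell under BD98 to 137 ± 9.3 CPM, against 209 ± 5.6 CPM in DMSO libraries.

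HSD17B12 encodes an enzyme of the endoplasmic reticulum that reduces estrone to estradiol and 3-ketoacyl-CoA in fatty acid elongation, from chr11:43680738-43856612 (plus strand). It stood at 41.8, 43.4 and 34.9 CPM in the BD98 libraries, against 51.2, 53.0 and 47.9 CPM in the DMSO libraries, with no overlap. The BD98 libraries were lower by a log2 fold change of -0.35 ± 0.12 (adjusted p = 0.0216). It no longer passed without BD98 replicate 3 (-0.25, adjusted p = 0.098), DMSO replicate 1 (-0.34, adjusted p = 0.0536) or DMSO replicate 2 (-0.32, adjusted p = 0.0729; range over alternatives 0.000601 to 0.098).

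Under ACBI, 2 libraries of HSD17B12 lay near those of BD98, at 40.8 and 40.5 CPM, and replicate 3 lay at 51.9 CPM, within the DMSO range. With all 3 libraries the ACBI value was -0.19 ± 0.11 (adjusted p = 0.148). Without replicate 3 it was -0.31 and passed (adjusted p = 0.0204; range over alternatives 0.0204 to 0.401). The 2-77, P-16 and ENZA means were 47.2, 49.8 and 51.1 CPM and did not pass. Of 11 other genes of fatty acid elongation, 6 were higher and 4 lower under ACBI, 5 and 5 without ACBI replicate 3, and 3 and 3 under BD98. The counts were 3 higher and 5 lower under both 2-77 and ENZA, and 3 and 4 under P-16. As shares of the list, 72.7% (2-77), 90.9% (ACBI), 54.5% (BD98), 63.6% (P-16) and 72.7% (ENZA) were called. Over all genes the shares were 40.7%, 72%, 49%, 24% and 36.3%, in that order. ELOVL5, an elongase of polyunsaturated fatty acids, changed far more than HSD17B12 under 2-77, ACBI, P-16 and ENZA. It stood at 236 ± 12 CPM under 2-77 and 331 ± 34 CPM under ACBI (log2 fold change -1.17, or -1.25 without replicate 3). Under P-16 it stood at 340.0 ± 6.0 CPM and under ENZA at 266 ± 7.1 CPM, against 748 ± 23 CPM in DMSO libraries. Under BD98, where HSD17B12 was lower, ELOVL5 stood at 704 ± 27 CPM and did not pass (log2 fold change -0.09, adjusted p = 0.162). ELOVL7, another elongase, stood at 10.8 ± 1.2 CPM under 2-77, 11.0 ± 0.46 CPM under BD98, 17.8 ± 1.5 CPM under P-16 and 10.4 ± 1.1 CPM under ENZA, against 55.8 ± 2.0 CPM in DMSO libraries. Under ACBI its log2 fold change was -0.17, or -0.22 without replicate 3. HACD3, a dehydratase of the same cycle, rose under ACBI (0.84 ± 0.035, or 0.85 without replicate 3), 2-77 (0.21), BD98 (0.49), P-16 (0.13) and ENZA (0.33). TECR, the final reductase of the cycle, rose under BD98 (0.56), ACBI (0.61, or 0.68 without replicate 3), 2-77 (0.16) and P-16 (0.18). Under ENZA the TECR value did not pass (0.05).

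SRD5A1, a 5α-reductase that acts on testosterone, fell under 2-77, BD98 and P-16. It lies at chr5:6633440-6674383 (plus strand). The libraries held 53.3, 52.0 and 57.8 CPM under 2-77, 59.0, 60.5 and 62.8 CPM under ACBI, and 51.6, 51.7 and 46.7 CPM under BD98. They held 62.9, 56.6 and 56.4 CPM under P-16, 63.1, 59.4 and 58.5 CPM under ENZA, and 64.6, 65.6 and 65.2 CPM under DMSO. Every library of every compound lay below the 3 DMSO libraries, which were close together.

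The log2 fold change of SRD5A1 was -0.39 ± 0.055 under BD98 (adjusted p = 1.11e-06), -0.26 ± 0.054 under 2-77 (adjusted p = 0.00027) and -0.15 ± 0.055 under P-16 (adjusted p = 0.0472). The ACBI value, -0.10 (95% interval -0.21 to 0.01; -0.11 without ACBI replicate 3), and the ENZA value, -0.11 (-0.222 to -0.0011, adjusted p = 0.11), did not pass. The P-16 fall was lost in 12 of 25 alternatives. They were DESeq2, no filter, the fit with a replicate term, and leaving out 2-77 replicate 1, ACBI replicate 2, P-16 replicate 2 or 3, ENZA replicate 2 or 3, or any DMSO library, with values of -0.15 to -0.12 and an adjusted p of up to 0.182 (lowest over alternatives 0.0147). No neighbours in the order DMSO, ACBI, ENZA, P-16, 2-77, BD98 passed the test, although the DMSO and ACBI libraries, and those of 2-77 and BD98, did not overlap. SRD5A2, the 5α-reductase of normal prostate stroma, had at most 2 counts in any library and was not tested.

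SRD5A3 varied least of the 8 genes between libraries of a condition (coefficient of variation at most 3.42%). Its product reduces the precursor of dolichol and was first described as a steroid reductase, and the gene lies at chr4:55346242-55373099 (plus strand). It stood at 71.5, 72.2 and 74.9 CPM in the 2-77 libraries, against 68.7, 64.8 and 67.3 CPM in the DMSO libraries, and between 62.0 and 67.3 CPM in the libraries of the other 4 compounds. The 2-77 libraries lay above all others. The difference between 2-77 and DMSO was 0.12 ± 0.045 (adjusted p = 0.0304), and no other compound passed, ACBI at -0.06 both with and without replicate 3. The 2-77 value did not pass with DESeq2 (0.11, adjusted p = 0.0539), without 2-77 replicate 2 (0.13, adjusted p = 0.0505) or 3 (0.10, adjusted p = 0.105), or without DMSO replicate 2 (0.10, adjusted p = 0.132) or 3 (0.13, adjusted p = 0.0591; range over alternatives 0.0192 to 0.132).

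Of 22 other genes of dolichol synthesis and use, 10 passed under 2-77, all lower (median -0.13, beside 0.00 over all genes), the direction opposite to SRD5A3. DPAGT1, which starts the sugar chain on dolichol, stood at 29.2 ± 0.64 CPM under 2-77 and 41.1 ± 2.4 CPM under DMSO. ALG3, a mannosyltransferase of the same chain, stood at 44.9 ± 1.5 CPM under 2-77 and 64.2 ± 4.2 CPM under DMSO. DPAGT1 was also lower under ACBI, BD98, P-16 and ENZA, with log2 fold changes of -0.52 (the same without ACBI replicate 3), -0.17, -0.23 and -0.41. Under ACBI, 4 of the 22 were higher and 8 lower, and 5 and 9 without ACBI replicate 3. Under BD98 4 were higher and 6 lower, and DHRSX, a dehydrogenase that works beside SRD5A3 in dolichol synthesis, rose by 0.51 ± 0.072 on the log2 scale. Under P-16 2 were higher and 4 lower, and under ENZA 2 and 5. As shares of the list, 45.5% (2-77), 54.5% (ACBI), 45.5% (BD98), 27.3% (P-16) and 31.8% (ENZA) were called. Over all genes the shares were 40.7%, 72%, 49%, 24% and 36.3%, in that order.

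STS rose under BD98 and stayed near DMSO or below it under the other compounds. The gene, at chrX:7147290-7354641 (plus strand), encodes the sulfatase that frees steroids for conversion by the dehydrogenases above. The libraries held 12.8, 15.1 and 14.4 CPM under 2-77, 16.3, 17.7 and 18.8 CPM under ACBI, and 24.4, 25.6 and 23.3 CPM under BD98. They held 14.0, 13.5 and 12.95 CPM under P-16, 15.6, 15.7 and 13.5 CPM under ENZA, and 14.7, 16.4 and 17.2 CPM under DMSO. The BD98 libraries lay above all others, the P-16 libraries below all 3 DMSO libraries, and the 2-77, ACBI and ENZA libraries overlapped with DMSO.

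The level of STS under BD98 was 1.51-fold that under DMSO (log2 fold change 0.59 ± 0.082, adjusted p = 6.56e-07), a larger change than that of 84% of genes. BD98 also exceeded ACBI, next in the order, by 0.47 ± 0.079 (adjusted p = 6.16e-06, unequal doses; 0.50, adjusted p = 4.52e-06 without ACBI replicate 3), and the other neighbours did not pass the test. Under P-16 STS fell, with a log2 fold change of -0.26 ± 0.088 (adjusted p = 0.029). That call was lost without P-16 replicate 2 (-0.26, adjusted p = 0.0725) or 3 (-0.23, adjusted p = 0.0979) and without DMSO replicate 2 (-0.25, adjusted p = 0.0837) or 3 (-0.21, adjusted p = 0.147; range over alternatives 0.017 to 0.147). Under 2-77 it was -0.20 (adjusted p = 0.0611), which passed without 2-77 replicate 2 (-0.25, adjusted p = 0.0392) and without DMSO replicate 1 (-0.26, adjusted p = 0.0305; range 0.0305 to 0.291). The ACBI value was 0.12 (95% interval -0.05 to 0.29), or 0.08 without replicate 3, and the ENZA value -0.11 (-0.28 to 0.07).

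On the opposite strand the span of STS overlaps PUDP, a phosphatase gene with 5749 counts over all libraries. The strand setting of the authors' counting is not given in the sources used here, so reads of the shared stretch could have been assigned to either gene. PUDP changed under BD98 by 0.07 on the log2 scale, with a 95% interval of -0.11 to 0.26, and under ACBI by -0.33 ± 0.092 (adjusted p = 0.00212; -0.34 without ACBI replicate 3). SRD5A3 likewise overlaps SRD5A3-AS1, which had 47 counts over all libraries.

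Sulfatases and the enzymes that activate them moved with no single pattern across the compounds. Of 12 tested, 10 passed under ACBI, all higher, with and without replicate 3, although STS itself did not pass there. Arylsulfatase A, ARSA, stood at 62.3 ± 3.1 CPM under ACBI and 28.6 ± 0.82 CPM under DMSO, and IDS, the iduronate sulfatase, at 146 ± 2.9 CPM and 74.0 ± 2.7 CPM in the same order. Their log2 fold changes were 1.12 and 0.98, and 1.17 and 0.98 without ACBI replicate 3. Under BD98 6 were higher and 5 lower, with ARSG, a lysosomal sulfatase, lower (-1.37 ± 0.066). ARSG was also lower under 2-77 (-0.85), P-16 (-0.67) and ENZA (-0.82), and higher under ACBI (0.89, or 0.93 without replicate 3). SUMF2, a relative of the enzyme that activates sulfatases, was lower under 2-77 (-0.48), BD98 (-0.14), P-16 (-0.39) and ENZA (-0.33). Under ACBI it did not pass (-0.04, or 0.03 without replicate 3). The counts were 4 higher and 2 lower under both 2-77 and ENZA, and 1 and 2 under P-16. As shares of the list, 50% (2-77), 83.3% (ACBI), 91.7% (BD98), 25% (P-16) and 50% (ENZA) were called. Over all genes the shares were 40.7%, 72%, 49%, 24% and 36.3%, in that order.

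**Figure D3:**
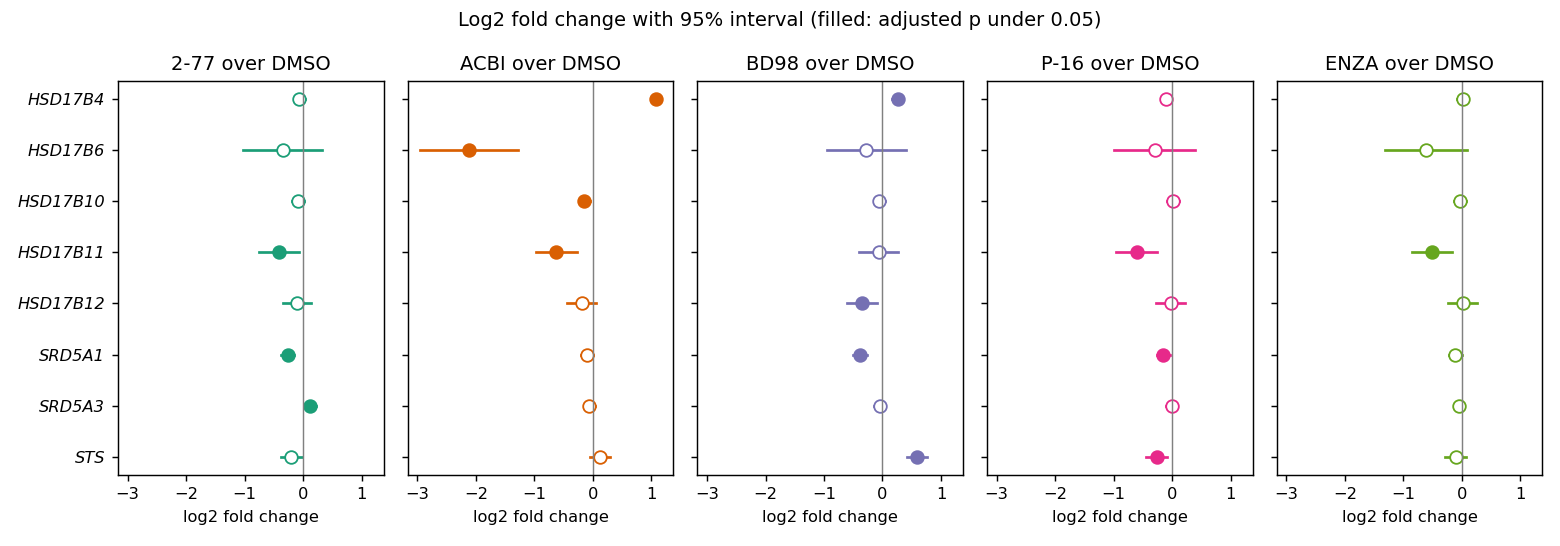
Log2 fold change over DMSO (x axis) with its 95% interval for each gene (rows) under each compound (panels); filled points have an adjusted p under 0.05. HSD17B4 under ACBI (1.08) and STS under BD98 (0.59) lie right of 0, HSD17B6 under ACBI (-2.12) lies far left with the widest interval, and SRD5A1 lies left of 0 under every compound.

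Other steroid oxidoreductases of LNCaP cells were measured beside the 8 genes. Of 14 tested, 2 were higher and 8 lower under ACBI, the same counts as among 15 tested without ACBI replicate 3. Under 2-77 2 were higher and 3 lower, under BD98 3 and 3, under P-16 4 were higher and none passed as lower, and under ENZA 1 was higher and 2 lower. The shares called, 35.7% (2-77), 71.4% (ACBI), 42.9% (BD98), 28.6% (P-16) and 21.4% (ENZA), were mostly near those over all genes. The latter were 40.7%, 72%, 49%, 24% and 36.3%, in that order. HSD17B14, a cytosolic dehydrogenase of the same family, was higher under all 5 compounds: 6.67 ± 0.98 CPM under 2-77, 16.3 ± 0.46 CPM under ACBI, 6.54 ± 0.45 CPM under BD98, 4.72 ± 1.1 CPM under P-16 and 5.90 ± 0.037 CPM under ENZA, against 2.95 ± 0.28 CPM under DMSO. Its log2 fold change under ACBI was 2.47, or 2.48 without replicate 3. HSD11B2, which inactivates cortisol, stood at 5.10 ± 0.66 CPM under ACBI and 27.8 ± 0.45 CPM under BD98, where it was lower, and at 55.2 ± 3.5 CPM under P-16, where it was higher, against 47.0 ± 1.4 CPM under DMSO. Its log2 fold change under ACBI was -3.21, or -3.10 without replicate 3. CBR1, a carbonyl reductase, rose under P-16 (0.28 ± 0.056) and fell under ACBI (-0.43 ± 0.057, or -0.42 without replicate 3), and DHRS11, a dehydrogenase that acts on steroids, fell under 2-77 (-0.30 ± 0.098). HSD17B3, the testicular enzyme that makes testosterone, had at most 1 count in any library and was not tested.

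Of the 8 tested genes of steroid synthesis from cholesterol, 4 were higher and 3 lower under both ACBI, with or without replicate 3, and BD98. Under 2-77 2 were higher and 3 lower, under ENZA 2 and 2, and under P-16 1 passed, higher. The shares called were 62.5% (2-77), 87.5% (ACBI), 87.5% (BD98), 12.5% (P-16) and 50% (ENZA). Over all genes they were 40.7%, 72%, 49%, 24% and 36.3%, in that order. TSPO, a mitochondrial membrane protein linked to cholesterol transport, stood at 74.2 ± 5.4 CPM under 2-77, 47.1 ± 7.5 CPM under ACBI, 73.4 ± 2.0 CPM under BD98 and 77.9 ± 1.4 CPM under ENZA, against 92.5 ± 6.0 CPM under DMSO. Its log2 fold change under ACBI was -0.97, or -0.85 without replicate 3. FDX1, the ferredoxin that feeds electrons to mitochondrial P450 enzymes, was higher under 2-77 (0.44 ± 0.049), P-16 (0.35 ± 0.049) and ENZA (0.50 ± 0.049), and lower under ACBI (-0.38 ± 0.051, with or without replicate 3) and BD98 (-0.28 ± 0.051). HSD3B1, which makes androstenedione from dehydroepiandrosterone, had at most 6 counts in any library and was not tested. Of 13 genes of steroid conjugation, 6 were higher and 2 lower under 2-77, 4 and 7 under ACBI (3 and 6 without replicate 3), 8 and 2 under BD98, 4 and 2 under P-16, and 5 and 2 under ENZA. These were 61.5%, 84.6%, 76.9%, 46.2% and 53.8% of the list in that order, beside the shares over all genes just given. Among the conjugation genes UGT2B15, which attaches glucuronic acid to dihydrotestosterone, stood at 234 ± 11 CPM under 2-77, 18.9 ± 0.24 CPM under ACBI, 263 ± 17 CPM under BD98, 129 ± 5.1 CPM under P-16 and 323 ± 4.4 CPM under ENZA, against 71.3 ± 2.8 CPM under DMSO. Its log2 fold change under ACBI was -1.92, or -1.91 without replicate 3.

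**Figure D4:**
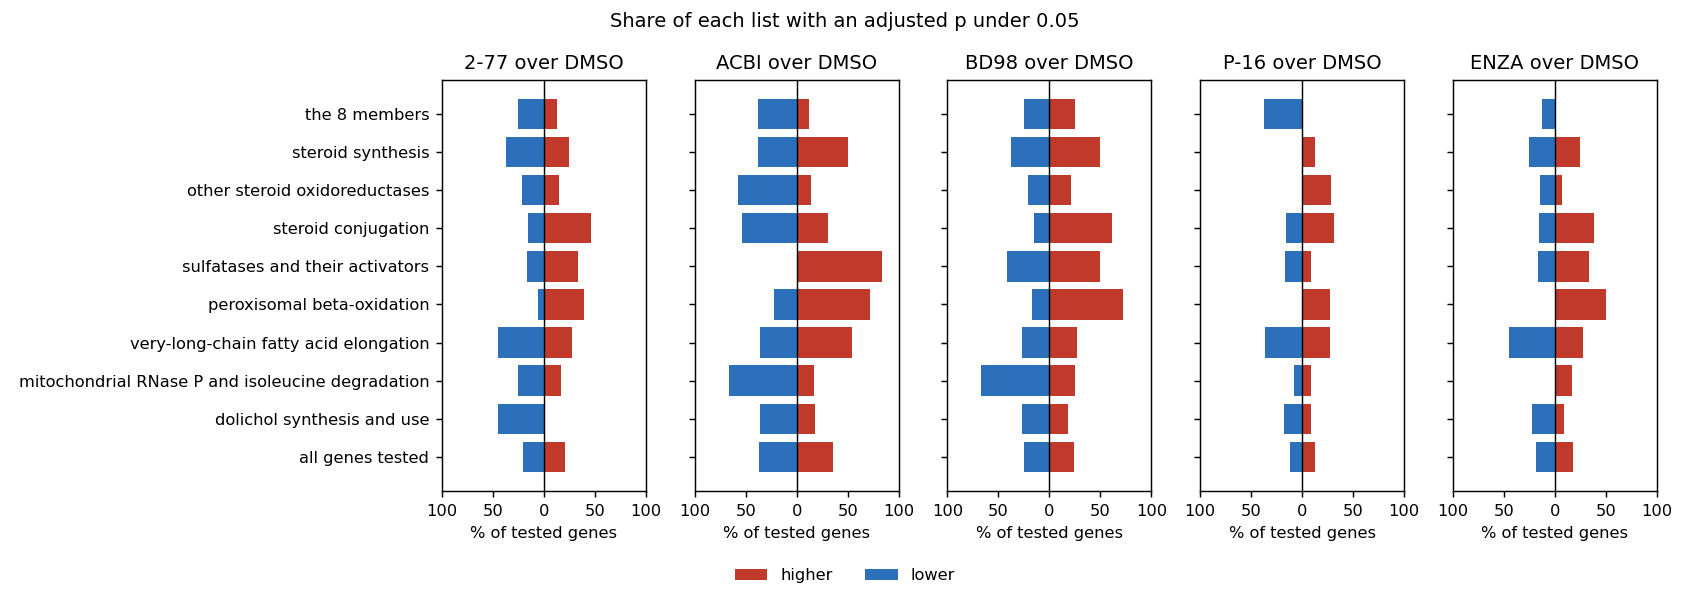
Share of tested genes (x axis, %) called higher (right) and lower (left) at an adjusted p under 0.05 for the 8 genes, each pathway list and all genes tested (rows), under each compound over DMSO (panels). The 8 genes reach 1 higher and 3 lower under ACBI, where 35.4% of all genes were higher and 36.6% lower, and the sulfatase list has 10 of 12 higher.

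Per length, the order of the 8 genes was compared as CPM per kilobase of the GENCODE principal transcript. In DMSO libraries HSD17B10 was highest at 92.0 ± 5.4 CPM per kilobase, followed by HSD17B4 at 64.1 ± 2.5, HSD17B12 at 19.7 ± 1.0 and SRD5A3 at 15.98 ± 0.47. SRD5A1 followed at 9.13 ± 0.069, HSD17B11 at 2.51 ± 0.098 and STS at 2.47 ± 0.19, which lay within each other's spread, and HSD17B6 was last at 0.646 ± 0.21. Under ACBI, HSD17B4 stood first at 136 ± 7.2 and HSD17B10 second at 83.2 ± 4.3 CPM per kilobase. The order of the middle genes depends on the length used: over all merged exons HSD17B12 fell behind SRD5A3 and SRD5A1, and HSD17B10 stayed first under ACBI, at 71.6 CPM per kilobase beside 34.2 for HSD17B4.

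P-16 and ENZA were the only pair at the same dose, and with edgeR 0 of the 8 genes differed between them at an adjusted p under 0.05, beside 21.4% of all genes. At an unadjusted p under 0.05 there was 1, HSD17B4 (-0.12, 95% interval -0.21 to -0.03), and DESeq2 also gave 0. The intervals of the P-16 minus ENZA difference reached from -0.33 to 0.02 for STS, -0.15 to 0.07 for SRD5A1, -0.46 to 0.26 for HSD17B11 and -0.40 to 1.02 for HSD17B6, and values within those bounds are not distinguished by these libraries. The androgen-induced gene KLK3, which encodes prostate-specific antigen, did differ between them, with 2399 ± 15 CPM under P-16 and 961 ± 1.6 CPM under ENZA (log2 difference 1.32 ± 0.032). Over DMSO, KLK3 changed by -2.54 under 2-77, -2.71 under ACBI (-2.67 without replicate 3), -0.74 under BD98, -0.83 under P-16 and -2.15 under ENZA.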

How the data were processed

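The deposited values are expected counts for each gene in each library, many of them fractional and none scaled to depth. STAR, Partek, DESeq2 and hg38 are named, without versions, per the submitters' processing notes of the authors' work; the counter, its annotation, strand setting and filters are not given in the sources used here. The column prefix SCO277 was read as 2-77, and PB_16 as P-16. After rounding, edgeR 4.0.16 (R 4.3.3) was run with filterByExpr (minimum count 10), TMM factors, 1 robust quasi-likelihood model of all 18 libraries, two-sided F tests and Benjamini-Hochberg adjustment over the 15422 genes tested, threshold 0.05. CPM use TMM-scaled totals. Standard errors are the log2 fold change divided by the root of F, and intervals are 95%. Intervals and floors cover counting error and the spread between these libraries only.

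The members and the gene lists were chosen with earlier results of these data known. In each list and comparison with DMSO, at most the 2 genes with the largest change among those past the threshold and with at least 4 CPM in the higher group were named, plus the members, KLK3 and, for members with an absolute log2 fold change of at least 1, the 2 nearest profiles; some of these genes are not reported here. SRD5A2, HSD17B3, HSD3B1 and the overlapping PUDP and SRD5A3-AS1, and further compounds of a named gene, were named after their values were seen. The alternatives were DESeq2 1.42.0, other scalings, other filters, a fit of 2 groups, a replicate term, and leaving out each library; the values of lists, list genes and neighbouring conditions without ACBI replicate 3 were added after seeing the data.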

Additional observations from a re-analysis of the deposited data

How the results depend on the processing

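Of 15 called values, 7 kept their direction and their call under all 25 alternatives: HSD17B4, HSD17B6 and HSD17B11 under ACBI, HSD17B4, SRD5A1 and STS under BD98, and SRD5A1 under 2-77. The other 8 lost the call somewhere, none changed sign, and 5 of 25 uncalled values passed somewhere. The number of genes called under 2-77, 3, was 1 with DESeq2 and 1 to 3 with a library left out. Under P-16 it was 3, and 0 to 4 with a library left out. Under ENZA it was 1, then 2 with only the 2 groups compared, where SRD5A1 passed (-0.11, adjusted p = 0.0421), and 0 to 1 with a library left out. Under ACBI it was 4, and 6 with library totals, which moved the median of all genes by -0.041 and at which HSD17B12 (-0.24) and SRD5A1 (-0.14) passed. The cause was not tested. With library totals the uncalled BD98 values of HSD17B10 and SRD5A3 turned to 0.0101 and 0.0188, where the median moved by 0.064. Leaving out a library turned 9 further uncalled values, and their ranges were -0.42 to 0.0469 (HSD17B6, BD98), -0.21 to 0.0791 (HSD17B11, BD98), -0.51 to 0.0211 (HSD17B6, P-16), -0.015 to 0.062 (HSD17B10, P-16), -0.068 to 0.013 (HSD17B12, P-16), -0.027 to 0.012 (SRD5A3, P-16), -0.0098 to 0.048 (HSD17B4, ENZA), -0.059 to 0.019 (HSD17B10, ENZA) and -0.043 to 0.073 (HSD17B12, ENZA). Over all genes tested, 1 of 45 pairs of libraries with the same replicate number correlated above 0.1, at a median of -0.0011. Over the 5128 genes with at least 50 CPM 13 of 45 did, with all 3 pairs above it for 2-77 with ACBI only. Libraries of unlike number were not compared in this way, so these values do not settle whether replicate numbers pair the libraries. With a replicate block SRD5A1 lost its P-16 call (-0.15, adjusted p = 0.0558), which left 2 genes there, and no other call of the members over DMSO changed. HSD17B6, at 2 to 35 counts, is limited by depth.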
